A study of Mus musculus with 30 samples.

Results

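Lyve1, Mrc1, Stab1, Cd163, Folr2, Timd4, Siglec1, F13a1, Cbr2 and Maf are 10 genes used to mark perivascular and tissue-resident macrophages. They were taken by symbol, as a list of markers chosen with earlier results of these data known, from the 21841 genes of the count table. All 10 were among the 13663 genes that passed the low count filter and were tested. Their mRNA was measured in 30 bulk RNA sequencing libraries of mammary tumours from MMTV-PyMT mice, in which the MMTV promoter drives the polyoma middle T oncogene in mammary epithelium. The strain was FVB/N-Tg(MMTV-PyVT)634Mul/J and the genotype label WT for every library, so all groups carried the transgene, and the age of the mice was not given. There were 5 tumours in each of 6 groups, which received vehicle, either chemotherapy (5-FU or gemcitabine), KCL-HO-1i, or KCL-HO-1i together with 1 of the chemotherapies (KCL-HO-1i/5-FU or, in the last group, KCL-HO-1i/gemcitabine). Per the labels, treatment lasted 72 h and all agents were given intraperitoneally, KCL-HO-1i at 25 µmol/kg each day, 5-FU in doses of 40 mg/kg spaced 4 days apart and gemcitabine in doses of 64 mg/kg spaced 7 days apart, whereas the methods of the study give a shorter exposure and a lower gemcitabine dose. KCL-HO-1i blocks heme oxygenase-1 (HO-1), which breaks down heme and is the product of Hmox1. Both chemotherapies are antimetabolites. A whole tumour holds all of its cell types, so fewer cells of a type and less RNA per cell cannot be told apart.

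Perivascular macrophages lie along blood vessels, take up material from plasma and interstitium, and carry scavenging receptors at high levels and MHC class II at low levels. In MMTV-PyMT tumours the study describes LYVE-1+ CD206hi perivascular tumour-associated macrophages (PvTAMs) as the cells rich in HO-1, which is the reason their marker genes are of interest under an HO-1 inhibitor. LYVE-1 binds hyaluronan and is also a classical marker of lymphatic endothelium, CD206 is the mannose receptor encoded by Mrc1, and neither gene is restricted to PvTAMs.

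Each library held between 10067600 and 13622300 counts, and levels are given as CPM, the usual counts-per-megaread measure, here with TMM-adjusted totals. A gene with 3 reads had a level of 0.215 to 0.302 CPM, depending on the library. The 8 mammary epithelial genes checked as tissue markers summed to between 2383 and 5653 CPM in every library, and all 18 general macrophage genes checked were detected in each group. The labels give each tumour an identifier of its own, and the number that leads it takes 13 values. That number, of unstated meaning, is called the mouse code here, and a shared code does not show that libraries came from the same mouse. Code 70 was shared by 4 libraries, all of them given KCL-HO-1i. The libraries that stood apart for these markers are described with their values after the groups. The study's methods say that its mice with spontaneous tumours were each taken on a different day, but the labels give no days, so the p-values measure the spread between these tumours, days included.

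On GRCm38 (GENCODE M21 annotation) the genes lie apart from each other on 7 chromosomes. Lyve1 is at chr7:110850607-110863239, Mrc1 at chr2:14229392-14332057, Stab1 at chr14:31139013-31168641, Cd163 at chr6:124304656-124330527 and Folr2 at chr7:101839988-101857194. Timd4 is at chr11:46810800-46844332, Siglec1 at chr2:131069220-131086765, F13a1 at chr13:36867178-37050244, Cbr2 at chr11:120729489-120732114 and Maf at chr8:115682942-115707794. Per kb of exonic sequence, the mean level over all libraries was 67.0 CPM for Cbr2, 11.5 for F13a1, 5.09 for Folr2, 4.18 for Mrc1, 3.28 for Stab1, 2.47 for Maf, 1.58 for Lyve1, 1.44 for Cd163, 0.673 for Siglec1 and 0.399 for Timd4. Cbr2 was thus by far the most abundant of the 10 per length, and Timd4 the least.

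The RefSeq promoter table (GRCm38.p6, 250 bases before to 50 after the start) held 9 promoters of 7 of the genes and none for Lyve1, Maf or Siglec1. Those of Mrc1 and Folr2 are shown because this pair was the most alike across libraries, and that of Cbr2 because it was the least like the rest. Capitals mark exact matches, on either strand, to TGCTGA (the core of Maf recognition elements), TGACTCA (the AP-1 site), TGACNNNGC (the antioxidant response element bound by NRF2 with small Maf proteins) and GAGGAA (the core of PU.1 sites).
Mrc1, chr2:14229164-14229463, plus strand: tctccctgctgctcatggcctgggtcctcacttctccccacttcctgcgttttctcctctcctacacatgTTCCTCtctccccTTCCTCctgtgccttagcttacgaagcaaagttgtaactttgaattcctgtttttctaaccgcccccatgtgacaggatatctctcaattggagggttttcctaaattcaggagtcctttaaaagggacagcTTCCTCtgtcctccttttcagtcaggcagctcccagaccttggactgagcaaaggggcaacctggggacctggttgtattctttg
Folr2, upstream start, chr7:101857141-101857440, minus strand: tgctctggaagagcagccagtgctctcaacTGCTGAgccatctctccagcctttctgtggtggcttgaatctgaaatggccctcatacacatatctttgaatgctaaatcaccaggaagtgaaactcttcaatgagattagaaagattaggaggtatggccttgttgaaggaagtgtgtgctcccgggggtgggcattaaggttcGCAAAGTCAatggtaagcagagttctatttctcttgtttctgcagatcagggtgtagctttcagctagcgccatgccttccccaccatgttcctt
Folr2, downstream start, chr7:101845282-101845581, minus strand: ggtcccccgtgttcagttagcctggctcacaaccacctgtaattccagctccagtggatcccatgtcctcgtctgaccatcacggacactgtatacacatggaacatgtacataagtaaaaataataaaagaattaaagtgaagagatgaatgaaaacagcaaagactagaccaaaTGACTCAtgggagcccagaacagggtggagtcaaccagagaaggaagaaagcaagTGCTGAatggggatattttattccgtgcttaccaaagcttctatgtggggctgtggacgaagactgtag
Cbr2, chr11:120731972-120732271, minus strand: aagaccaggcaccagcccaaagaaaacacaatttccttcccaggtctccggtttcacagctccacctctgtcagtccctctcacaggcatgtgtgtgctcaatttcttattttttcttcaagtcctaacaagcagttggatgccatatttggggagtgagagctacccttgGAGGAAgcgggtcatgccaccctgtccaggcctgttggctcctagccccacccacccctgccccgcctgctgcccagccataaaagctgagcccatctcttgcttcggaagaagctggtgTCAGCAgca
The Mrc1 window held 3 GAGGAA matches and none of the other motifs. The Folr2 windows each held 1 TGCTGA match, with 1 TGACNNNGC match at the upstream start and 1 TGACTCA match at the downstream start. The Cbr2 window held 1 TGCTGA and 1 GAGGAA match. Over the 9 promoters, TGCTGA occurred in 5 (19.5% of all 32851 promoters), GAGGAA in 5 (28.3%), TGACTCA in 1 (5.20%) and TGACNNNGC in 1 (12.4%). None of the matches printed here overlap, and a match describes letters in the window and not a bound site.

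The scavenging and endocytic receptors Lyve1, Mrc1, Stab1, Cd163 and Folr2 had their highest group means in KCL-HO-1i or KCL-HO-1i/gemcitabine, with tumours that differed widely within a group. Lyve1, the hyaluronan receptor, stood at 1.79, 0.0727, 0.352, 4.24 and 0.818 CPM in vehicle replicates 1 to 5, at 5.10, 2.11, 1.39, 0 and 4.59 with 5-FU and at 0.980, 2.42, 0.824, 0.698 and 15 with gemcitabine. With KCL-HO-1i the Lyve1 levels were 7.75, 5.07, 15.8, 34.5 and 0.247 CPM, with KCL-HO-1i/5-FU 0.754, 1.04, 0.617, 1.98 and 0, and with KCL-HO-1i/gemcitabine 5.04, 18.1, 0.248, 0.0754 and 5.64. Of the 5 KCL-HO-1i tumours 4 were above every vehicle tumour and the remaining one was among the lowest, whereas all 5 KCL-HO-1i/5-FU tumours were below 2 CPM. The share of all genes tested with 4 of 5 tumours above the vehicle group was not counted, here or for the genes below. The mean of Lyve1 was 12.7 ± 13.4 CPM (SD, n = 5) with KCL-HO-1i and 0.877 ± 0.722 with KCL-HO-1i/5-FU, the highest and the lowest of the 6 groups. Averaged over the 3 backgrounds (vehicle, 5-FU and gemcitabine), the log2 fold change of Lyve1 with KCL-HO-1i was 0.70 (SE 0.70, adjusted p = 0.591, edgeR).

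Mrc1, the mannose receptor CD206, was at 8.64, 5.81, 3.61, 15.7 and 4.76 CPM in vehicle, at 19.9, 9.74, 11.7, 4.64 and 9.41 with 5-FU and at 5.80, 13.02, 6.13, 3.03 and 55.0 with gemcitabine. The Mrc1 levels with KCL-HO-1i were 21.1, 25.0, 58.8, 77.4 and 3.05 CPM, those with KCL-HO-1i/5-FU 7.61, 19.9, 72.4, 14.9 and 2.11, and those with KCL-HO-1i/gemcitabine 27.7, 111, 7.27, 9.27 and 38.6. The same split was seen as for Lyve1, 4 of 5 KCL-HO-1i tumours lying above the whole vehicle group, but 1 of the KCL-HO-1i/5-FU tumours was as high in Mrc1 as the top KCL-HO-1i tumours while being low in Lyve1. The group means of Mrc1 were 7.70 ± 4.84 CPM in vehicle, 37.1 ± 30.2 with KCL-HO-1i, 23.4 ± 28.2 with KCL-HO-1i/5-FU and 38.8 ± 42.5 with KCL-HO-1i/gemcitabine (SD, n = 5). The averaged log2 fold change of Mrc1 was 1.52 (SE 0.50, adjusted p = 0.0818).

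Folr2, folate receptor beta, had 2.35, 3.71, 0.616, 4.24 and 1.71 CPM in vehicle, 7.78, 3.65, 7.46, 1.87 and 2.67 with 5-FU and 0.980, 3.92, 2.20, 0.388 and 18.9 with gemcitabine. The KCL-HO-1i tumours had 7.53, 6.63, 19.6, 25.1 and 2.06 CPM of Folr2, the KCL-HO-1i/5-FU tumours 1.81, 5.93, 10.4, 3.37 and 1.41, and the KCL-HO-1i/gemcitabine tumours 10.97, 26.6, 2.56, 3.09 and 12.2. Its levels followed those of Mrc1 tumour by tumour. The averaged log2 fold change of Folr2 was 1.10 (SE 0.47, adjusted p = 0.163). Cd163, the receptor for haptoglobin-hemoglobin complexes and so the receptor closest to heme handling, ranged from 0.0879 to 5.13 CPM in vehicle and from 3.71 to 29.7 with KCL-HO-1i, with 4 of 5 KCL-HO-1i tumours above every vehicle tumour. With KCL-HO-1i/5-FU Cd163 ranged from 1.66 to 7.86 CPM, and its averaged log2 fold change was 0.97 (SE 0.55, adjusted p = 0.293). Stab1, the scavenger receptor stabilin-1, which sinusoidal endothelium also carries, was the steadiest receptor, at 17.4 ± 8.15 CPM in vehicle, 29.9 ± 13.7 with KCL-HO-1i, 35.2 ± 20.1 with KCL-HO-1i/5-FU and 37.2 ± 24.6 with KCL-HO-1i/gemcitabine (SD, n = 5). Its averaged log2 fold change was 0.89 (SE 0.29, adjusted p = 0.0808).

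Timd4 and Siglec1 encode receptors for phosphatidylserine on dying cells and for sialylated glycans, and both are low in these tumours. Timd4 counts came to 12 reads over all 5 vehicle libraries, 2 of which had none, and to 101 reads over the KCL-HO-1i libraries. In CPM, Timd4 was 0.210 ± 0.242 in vehicle, 1.75 ± 1.84 with KCL-HO-1i, 0.272 ± 0.309 with KCL-HO-1i/5-FU and 1.70 ± 2.25 with KCL-HO-1i/gemcitabine (SD, n = 5). Much of the vehicle group and of the KCL-HO-1i/5-FU group was therefore at or under the level of 3 reads, and Timd4 was the member with the least precise values. Its averaged log2 fold change was 1.14 (SE 0.66, adjusted p = 0.307). Siglec1 was at 3.10 ± 1.91 CPM in vehicle, 5.27 ± 3.02 with KCL-HO-1i, 9.17 ± 13.2 with KCL-HO-1i/5-FU and 5.35 ± 3.62 with KCL-HO-1i/gemcitabine, and the KCL-HO-1i/5-FU mean rested on replicate 3 at 32.6 CPM, since the other 4 tumours were between 1.28 and 6.09. The averaged log2 fold change of Siglec1 was 1.08 (SE 0.46, adjusted p = 0.159).

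F13a1 encodes the A subunit of the transglutaminase factor XIII, which crosslinks fibrin and is made by macrophages and megakaryocytes. F13a1 was at 23.5, 20.3, 1.93, 22.6 and 11.2 CPM in vehicle, at 29.02, 19.4, 18.2, 3.01 and 23.2 with 5-FU and at 17.5, 24.4, 7.97, 24.1 and 91.5 with gemcitabine. The values of F13a1 were 46.6, 45.5, 119, 181 and 12.04 CPM with KCL-HO-1i, 11.9, 30.6, 221, 19.8 and 6.89 with KCL-HO-1i/5-FU, and 51.1, 202, 18.3, 25.7 and 54.0 with KCL-HO-1i/gemcitabine. Its averaged log2 fold change, 1.69, was the largest of the 10 (SE 0.51, adjusted p = 0.0650). The 4 megakaryocyte and platelet genes checked beside it summed to between 0.730 and 4.67 CPM. In the libraries with the lowest F13a1 that sum was as high as F13a1 or nearly so, 1.93 CPM for both in vehicle replicate 3 and 2.93 against 3.01 CPM in 5-FU replicate 4.

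Cbr2, a carbonyl reductase known from lung, showed another pattern from the receptors. Its levels were 59.8, 33.1, 12.2, 64.5 and 119 CPM in vehicle, 60.6, 42.4, 121, 31.2 and 81.4 with 5-FU and 42.7, 34.6, 44.5, 33.9 and 69.1 with gemcitabine. Cbr2 was at 43.6, 49.3, 99.7, 80.0 and 59.9 CPM with KCL-HO-1i, within the vehicle range, at 46.6, 67.0, 229.8, 50.2 and 45.6 with KCL-HO-1i/5-FU and at 67.0, 107, 189, 151 and 97.6 with KCL-HO-1i/gemcitabine. The last of these groups had the highest mean, 122 ± 47.7 CPM (SD, n = 5), and 4 of its 5 tumours lay above the gemcitabine group. The averaged log2 fold change of Cbr2 was 0.68 (SE 0.28, adjusted p = 0.148). Cbr2 lies on distal chromosome 11, and its log2 deviations were set beside the median deviation of the 40 tested genes nearest to it. The Pearson correlation over the 30 libraries was -0.17, given as a description, and the 2 libraries with the highest neighbour medians (KCL-HO-1i/5-FU replicate 5 and gemcitabine replicate 4) ranked 21 and 27 for Cbr2.

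Maf encodes the transcription factor c-MAF, active in interleukin-10-producing and resident macrophages. Maf stood at 10.3, 5.74, 3.43, 10.01 and 7.74 CPM in vehicle, at 13.5, 12.98, 16.5, 9.77 and 15.3 with 5-FU and at 3.92, 9.85, 8.06, 5.04 and 28.1 with gemcitabine. Maf levels reached 12.7, 25.7, 34.6, 49.6 and 4.62 CPM with KCL-HO-1i, 14.0, 21.0, 78.4, 12.3 and 6.34 with KCL-HO-1i/5-FU, and 22.5, 102, 30.9, 11.3 and 25.2 with KCL-HO-1i/gemcitabine. All 5 KCL-HO-1i/gemcitabine tumours were above all 5 vehicle tumours, the only one of 150 pairs of groups over the 10 genes whose ranges did not overlap, while 2.20% of all genes tested were higher without overlap in that comparison. The averaged log2 fold change of Maf was 1.51 (SE 0.38), with the smallest p of the 10 (adjusted p = 0.0525). In the order of group means, all 50 pairs of neighbouring groups overlapped over the 10 genes, and over all genes tested only 0.1098% of neighbouring pairs did not, so the lack of a separate step is not particular to these genes. Over all genes and all pairs of groups, 1.82% did not overlap.

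**Figure D1:**
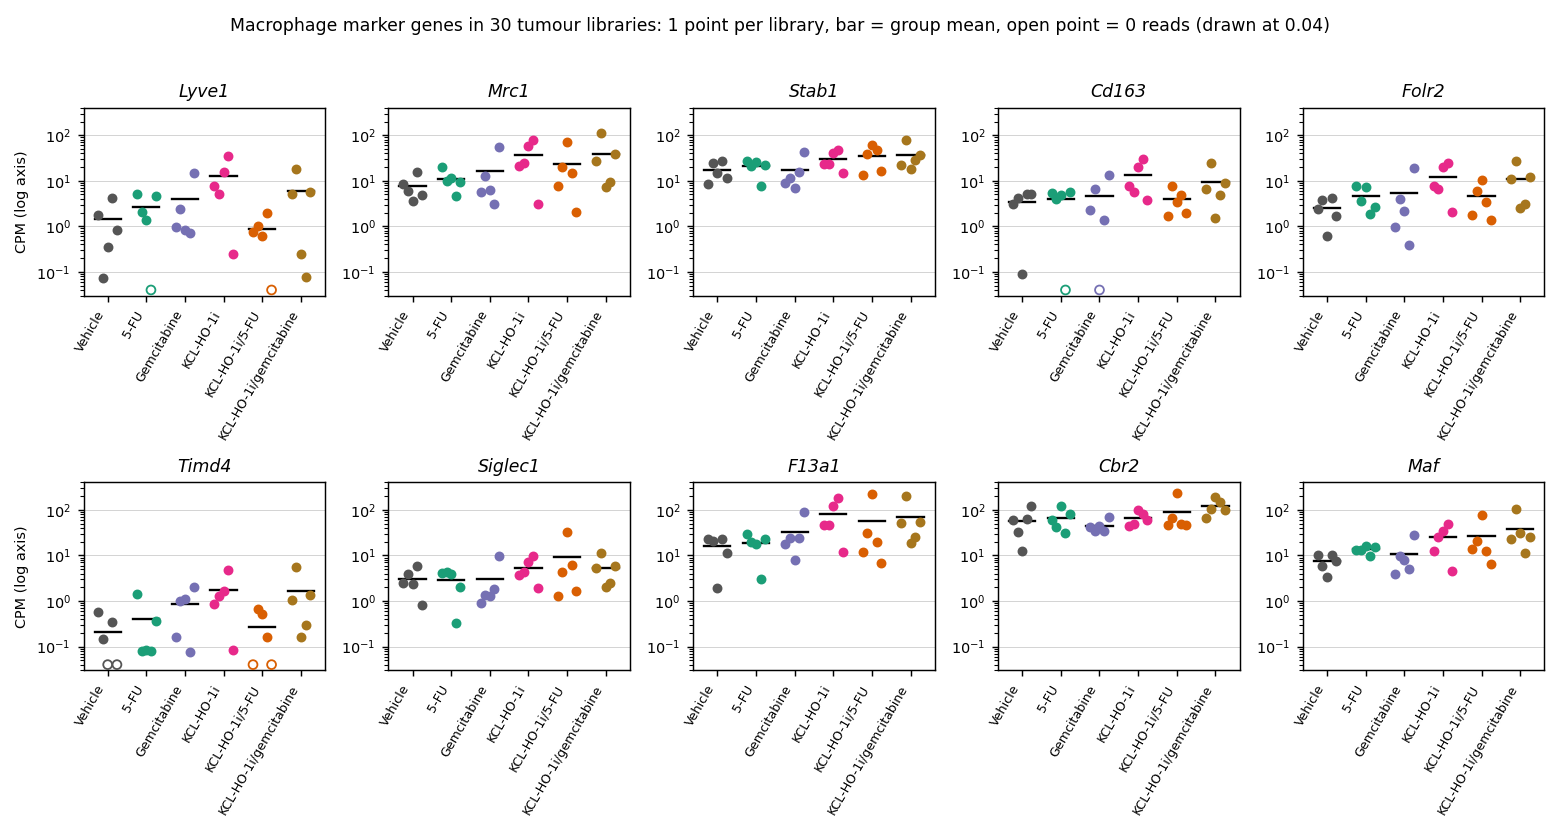
Level of each of the 10 marker genes (CPM, log axis) in the 6 groups, 1 point per library, with a bar at the mean of 5 libraries and open points for libraries with 0 reads. For Lyve1, Mrc1, Cd163, Folr2, Timd4, F13a1 and Maf, 4 of 5 KCL-HO-1i tumours lie above the vehicle group, against 2 of 5 for Stab1 and Siglec1 and 0 for Cbr2. Those 4 are the same tumours, replicates 1 to 4, for each of these genes, and the share of all genes with such a split was not counted.

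Averaged over the 3 backgrounds, all 10 genes had a positive log2 fold change with KCL-HO-1i, from 0.68 for Cbr2 to 1.69 for F13a1, with a median of 1.09. The background is that 49.8% of all genes tested were positive, with a median of -0.00. No member passed the adjusted threshold of 0.05 in edgeR, which only 8 genes, 0.0586% of those tested, did. At an unadjusted p under 0.05, 7 of the 10 were higher with KCL-HO-1i (Maf, F13a1, Stab1, Mrc1, Cbr2, Siglec1 and Folr2) against 13.7% of all genes, and none was lower, against 9.22% of all genes. Of the 15 tumours given KCL-HO-1i, 12 were above the mean of their own background for Stab1, Cd163, F13a1 and Maf, and 8 for Lyve1, where 12.2% of all genes had 12 or more. DESeq2 called 4 of them (Maf at adjusted p = 0.00394, F13a1 at 0.0156, Mrc1 at 0.0204 and Stab1 at 0.0305) where it called 6.21% of genes higher and 2.13% lower, whereas limma-voom with sample weights called none of the 10 and 1.02% of genes higher. The group to which a tumour belonged accounted for a median of 27.6% of the variance of log2 CPM over the 10 genes and 20.5% over all genes.

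The test results depended on a few tumours. Without gemcitabine replicate 5, which was the highest gemcitabine tumour for each of the 10 genes, edgeR called 6 of the 10, namely F13a1, Folr2, Maf, Mrc1, Siglec1 and Stab1, with 1130 genes called in all. Without the 4 libraries of mouse code 70, a choice made after the data were seen, the median log2 fold change of the 10 was 0.67 and 1 of them had an unadjusted p under 0.05, where 11.2% of genes had in either direction. Without KCL-HO-1i/5-FU replicate 3 alone, 4 of the 10 had, where 18.2% of genes had. With the mean level of 18 general macrophage genes as a covariate, 4 of the 10 stayed positive (Maf 0.48, Stab1 0.18, Cbr2 0.11 and Mrc1 0.10 on the log2 scale) and the other 6 were between -0.48 and -0.06, all with adjusted p = 0.999. With the mean level of 12 adipocyte genes as a covariate, 8 stayed positive, and Lyve1 (-0.96) and Timd4 (-0.47) were negative.

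**Figure D2:**
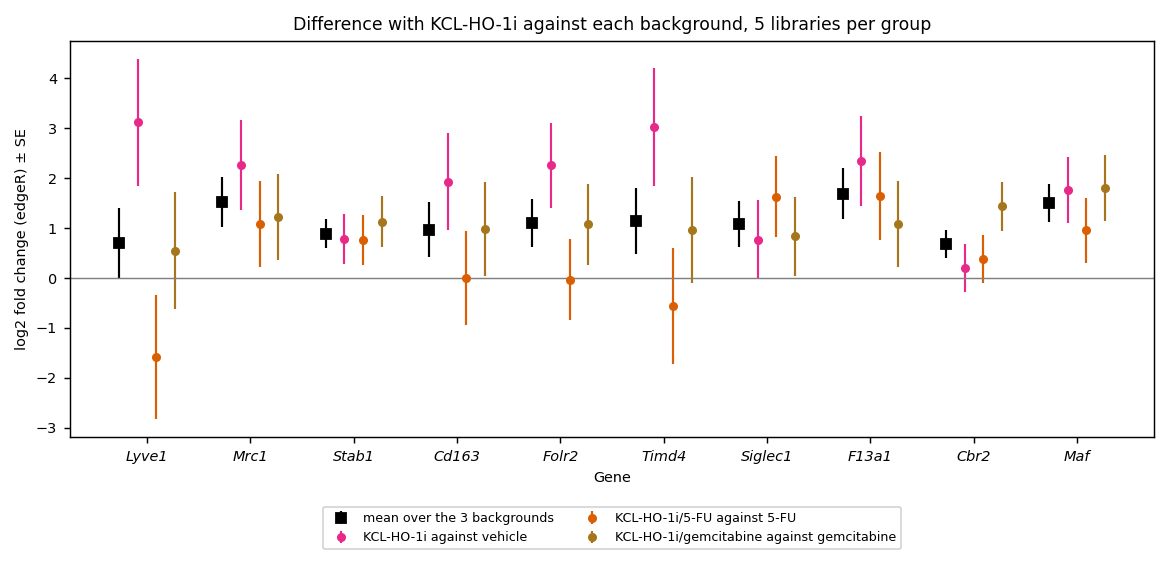
Log2 fold change with KCL-HO-1i for each gene (edgeR, bars 1 SE, 5 libraries per group), averaged over the 3 backgrounds (square) and against each background (circles). The averages lie between 0.68 and 1.69, and Lyve1 differs most between backgrounds, from 3.12 against vehicle to -1.58 between KCL-HO-1i/5-FU and 5-FU.

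The following comparisons share libraries, with the same 5 vehicle tumours in several of them, so their values are given side by side. Chemotherapy alone had no member with an unadjusted p under 0.05, either with 5-FU, where 1.65% of genes were higher and 2.24% lower at that level, or with gemcitabine, where 2.05% were higher and 1.78% lower. The log2 fold changes of the 10 lay between -0.07 and 0.96 with 5-FU, 9 of them positive where 50.2% of genes were, and between -0.36 and 2.02 with gemcitabine, 7 of them positive where 55.5% of genes were, and no gene of the table passed adjustment in either (edgeR, DESeq2 and limma-voom, with 532 and 523 genes at an unadjusted p under 0.05 in edgeR). Those signs rested on single tumours, since without gemcitabine replicate 5 only 2 of 10 were positive with gemcitabine (median -0.33 in place of 0.80), and without vehicle replicate 3 there were 6 of 10 with 5-FU. KCL-HO-1i alone against vehicle gave 6 of 10 members with an unadjusted p under 0.05, all higher, against 7.36% of genes higher and 2.08% lower. All 10 were positive, where 47.9% of genes were, and DESeq2 called none of the 10, with 0.849% of genes called higher and 0.022% lower. They were Lyve1 (log2 fold change 3.12, SE 1.27), Timd4 (3.02, SE 1.19), F13a1 (2.35, SE 0.91), Mrc1 (2.27, SE 0.89), Folr2 (2.26, SE 0.85) and Maf (1.77, SE 0.66), with adjusted p-values between 0.388 and 0.428. The other 4 lay between 0.20 and 1.93. Without KCL-HO-1i replicate 4 the count was 1 of 10 and the median log2 fold change 1.60 in place of 2.10, where 4.601% of genes had an unadjusted p under 0.05 in either direction. The KCL-HO-1i and vehicle groups shared no mouse code, so KCL-HO-1i and the code cannot be told apart in this comparison.

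KCL-HO-1i/gemcitabine against vehicle gave 7 of 10 with an unadjusted p under 0.05, all higher, where 11.7% of genes were higher and 8.04% lower, and all 10 were positive, where 52.5% of genes were. Timd4 (log2 fold change 2.98), Maf (2.36), Mrc1 (2.33), F13a1 (2.14), Folr2 (2.12), Stab1 (1.09) and Cbr2 (1.08) made up the 7, and Maf had the smallest adjusted p (0.0869 in edgeR, 0.00992 in DESeq2 and 0.0323 in limma-voom, which called 4.75% and 4.85% of genes higher). Without KCL-HO-1i/gemcitabine replicate 2 the count was 2 of 10 and the median 1.16 in place of 2.06, where 13.9% of genes had an unadjusted p under 0.05, and without vehicle replicate 3 it was 4. Against gemcitabine alone the treatments differed only by KCL-HO-1i, but these groups shared no mouse code, so KCL-HO-1i and the code cannot be told apart. In that comparison 3 of 10 had an unadjusted p under 0.05 (6.94% of genes were higher). These were Maf (1.81, SE 0.66), Cbr2 (1.44, SE 0.49) and Stab1 (1.13, SE 0.51), with adjusted p-values of 0.289, 0.282 and 0.341. All 10 were positive there, where 50% of genes were. Without KCL-HO-1i/gemcitabine replicate 2 that count was 1 of 10 (median 0.35 in place of 1.08, with 8 positive), and without gemcitabine replicate 5 it was 6 (median 1.92). Between KCL-HO-1i/gemcitabine and KCL-HO-1i no member had an unadjusted p under 0.05 (1.2% of genes were higher and 1.46% lower), and the log2 differences lay between -1.12 and 0.88.

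In the 5-FU background the picture was split among the members. KCL-HO-1i/5-FU against vehicle gave 2 of 10 with an unadjusted p under 0.05 (9.79% of genes were higher and 7.84% lower), F13a1 (log2 fold change 1.87, SE 0.89) and Maf (1.82, SE 0.66). Without KCL-HO-1i/5-FU replicate 3 neither had, F13a1 was at 0.12 and Maf at 0.85, and the median of the 10 was 0.18 in place of 0.93, while leaving out any other single library gave counts from 1 to 5. The KCL-HO-1i/5-FU and vehicle groups shared no mouse code, so treatment and code cannot be told apart there. Of the 10, 9 were positive, where 51.4% of genes were, and DESeq2, which called 2.04% of genes higher, called none. Against 5-FU alone none had (6.18% of genes were higher and 5.26% lower), with 6 of 10 positive, where 53.3% of genes were, DESeq2 calling 0.183% of genes higher, 0.139% lower and none of the 10, and values from -1.58 for Lyve1 to 1.64 for F13a1. Relative to KCL-HO-1i alone, KCL-HO-1i/5-FU tumours had 2 of 10 genes lower at an unadjusted p under 0.05, where 9.43% of genes were, namely Lyve1 (-3.84, SE 1.32, adjusted p = 0.149) and Timd4 (-2.63, SE 1.15, adjusted p = 0.243). DESeq2 called Lyve1 in this comparison (adjusted p = 0.0392), with 1.72% of genes called lower. The interaction, which tests whether KCL-HO-1i acted alike with and without 5-FU, had an unadjusted p under 0.05 for the same genes, Lyve1 (-4.70, SE 1.78, adjusted p = 0.486) and Timd4 (-3.59, SE 1.66, adjusted p = 0.557), against 4.51% of genes lower, and DESeq2 called neither. Without KCL-HO-1i/5-FU replicate 3 these counts were 4 and 5 of 10, with F13a1 and Folr2 in both and Maf in the interaction. Both counts were 1 without KCL-HO-1i replicate 4 or KCL-HO-1i/5-FU replicate 1, 4 or 5, and that of the interaction also without vehicle replicate 2, 3 or 5 or 5-FU replicate 1. The interaction with gemcitabine had none (0.644% of genes were higher and 0.695% lower).

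Lyve1 and Mrc1 were therefore set against each other within each tumour. Lyve1 counts per 100 Mrc1 counts had a median of 17.2 in vehicle (range 1.25 to 27.0), 21.7 with 5-FU (0 to 48.8), 18.6 with gemcitabine (13.4 to 27.3), 26.8 with KCL-HO-1i (8.11 to 44.6), 5.20 with KCL-HO-1i/5-FU (0 to 13.3) and 14.6 with KCL-HO-1i/gemcitabine (0.813 to 18.2). The KCL-HO-1i/5-FU group had the lowest median, and its range overlapped those of all groups but gemcitabine, where the gap was narrow (13.3 against 13.4). The ratio was chosen after the Lyve1 values were seen, and the share of gene pairs whose ratios part in this way was not counted. Lyve1 came to only 55 reads over the 5 KCL-HO-1i/5-FU libraries, 1 of which had none. In the tumour with the third highest Mrc1, KCL-HO-1i/5-FU replicate 3, Mrc1 was 72.4 CPM and Lyve1 0.617, a ratio of 0.852 per 100. KCL-HO-1i replicate 4 had a similar Mrc1 level of 77.4 CPM with 34.5 CPM of Lyve1, a ratio of 44.6 per 100.

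**Figure D3:**
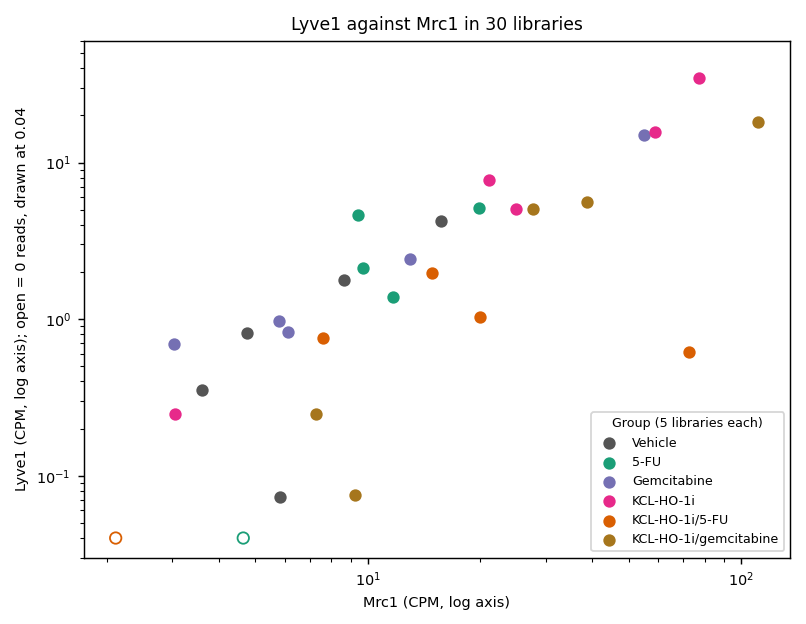
Lyve1 against Mrc1 (CPM, both axes logarithmic) in the 30 libraries, coloured by group, with libraries that had no Lyve1 read drawn as open points at the bottom. Most tumours lie along a diagonal, and KCL-HO-1i/5-FU replicate 3 lies far below it at 72.4 CPM of Mrc1 and 0.617 CPM of Lyve1.

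Most of the variation of these genes lay between libraries of the same group. In KCL-HO-1i/gemcitabine replicate 2 the median of the 10 genes lay 2.76 above their own means on the log2 scale, in KCL-HO-1i replicate 4 2.55, in KCL-HO-1i replicate 3 1.87, in gemcitabine replicate 5 1.81 and in KCL-HO-1i/5-FU replicate 3 1.67. KCL-HO-1i/gemcitabine replicate 2 was the highest library of all for 5 of the genes, and KCL-HO-1i/5-FU replicate 3 was so for Siglec1, F13a1 and Cbr2. The lowest were vehicle replicate 3, with a median of -1.94, and 5-FU replicate 4, with -1.48, which had no read of Lyve1 or Cd163. The 3 libraries of mouse code 65 (KCL-HO-1i replicate 5 and KCL-HO-1i/5-FU replicates 1 and 5) were all low, from -1.30 to -1.03, and the 4 of code 70 all high, from 0.73 to 2.76, although both sets had been given KCL-HO-1i. The share of mitochondrial counts was 9.69% in KCL-HO-1i replicate 4 and 4.54% in KCL-HO-1i/gemcitabine replicate 2, the highest of the 30 libraries, with a median of 2.38%. The epithelial sum was lowest in KCL-HO-1i/5-FU replicate 3, at 2383 CPM, and in KCL-HO-1i/gemcitabine replicate 2, at 2566 CPM, and the part of these measures in the marker levels was not tested. Hmox1, the gene of the inhibited enzyme, had its highest library, 1198 CPM, in KCL-HO-1i/5-FU replicate 3.

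**Figure D4:**
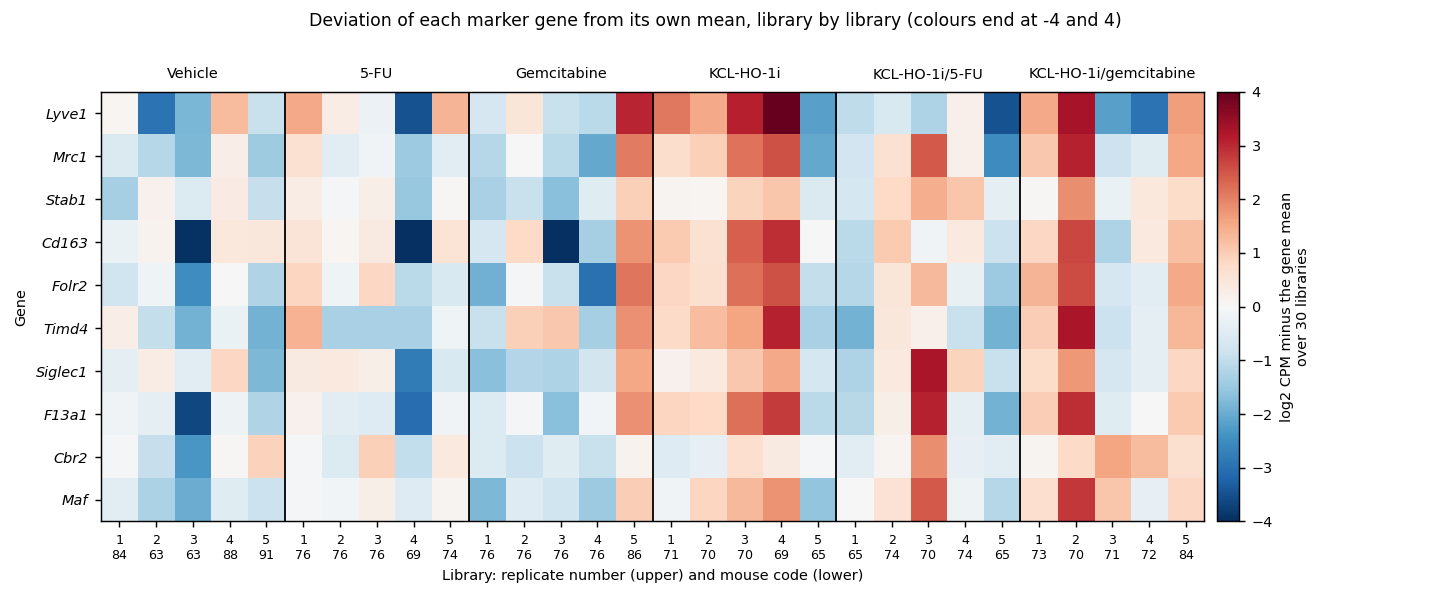
Deviation of each gene from its own mean over the 30 libraries (log2 CPM with a prior count of 2, red above and blue below), with the replicate number and the mouse code under each column. KCL-HO-1i/gemcitabine replicate 2 and KCL-HO-1i replicate 4, with medians of 2.76 and 2.55, are red for nearly every gene, and mouse code 65 is blue in all 3 of its libraries.

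Treated and untreated tumours, with regard to KCL-HO-1i, shared a mouse code in 3 codes only. In code 69 the KCL-HO-1i tumour exceeded the 5-FU tumour for all 10 genes, for example Mrc1 at 77.4 against 4.64 CPM. Those tumours were among the highest and the lowest of all libraries for these genes, with medians of 2.55 and -1.48. In code 84, the only code that held vehicle together with another group, the KCL-HO-1i/gemcitabine tumour exceeded the vehicle tumour for all 10, with Mrc1 at 38.6 against 8.64 CPM. Those tumours also differed by gemcitabine. In code 74 both KCL-HO-1i/5-FU tumours were above the 5-FU tumour for 4 of the genes (Mrc1, Stab1, Folr2 and Siglec1) and below it for Lyve1 and Cbr2. These comparisons set very few libraries against each other for genes that varied together. The share of all genes tested that did the same was not counted, so they are descriptions only. With the code as a covariate the averaged log2 fold changes of the 10 were all positive, with a median of 2.30, and 5 of the 10 had an unadjusted p under 0.05, where 10.03% of genes had, although no gene of the table passed adjustment (edgeR). That fit ties vehicle to other groups through vehicle replicate 1 alone. Only replicates 4 and 5 of 5-FU shared a code with a KCL-HO-1i library, and gemcitabine shared a code with 5-FU only. The median of 2.30, against 1.09 without the code, therefore rests on few libraries and is a description only.

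Across the 30 libraries the 10 genes varied together. Pearson correlations of log2 CPM had a median of 0.718 over the 45 pairs and of 0.712 with the group means subtracted, given as descriptions of libraries that share these groups. The closest pair was Mrc1 with Folr2 (r = 0.930, Spearman rho = 0.946), followed by Mrc1 with F13a1 (0.892) and Stab1 with Siglec1 (0.887). Cbr2 was the least like the others, with a median of 0.482 over its 9 pairs and 0.188 with Lyve1. Over all genes tested, those most like Lyve1 were Fcna (r = 0.921), Pck1 (0.907), Cadm3 (0.905), Cd209b (0.897) and Tnxb (0.896), of which Fcna and Cd209b encode a ficolin and a lectin known from resident macrophages, Pck1 an enzyme abundant in adipose tissue and Tnxb a matrix protein. Those most like Mrc1 were C1s1 (0.954), Mmp19 (0.949), Col3a1 (0.946), Scara3 (0.944) and Efemp1 (0.943), and Col3a1, which encodes the chain of type III collagen, is a gene of fibroblasts. The members closest to Lyve1 were Timd4 (0.802) and Mrc1 (0.800), at ranks 94 and 97 among all genes.

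The other genes of the same biology were read from lists chosen with earlier results of these data known, and are given beside the background of 13.7% of genes higher at an unadjusted p under 0.05 in the KCL-HO-1i average. Of 25 further resident macrophage genes, all 25 were positive, 20 had an unadjusted p under 0.05 and none passed adjustment, with a median log2 fold change of 1.21. Pf4, a chemokine of resident macrophages and platelets (2.07, SE 0.46), Axl, a receptor for Gas6 on dying cells (0.98, SE 0.24), and Cd5l, an apoptosis inhibitor of macrophages (2.33, SE 0.57), had the smallest p-values, each with an adjusted p of 0.0525. The 18 general macrophage genes were also all positive, 17 with an unadjusted p under 0.05, but with a smaller median of 0.78, led by Fcgr3 (0.93), Spi1 (0.88) and C1qb (0.79). Between KCL-HO-1i/5-FU and 5-FU, 21 of the 25 resident genes were positive and 3 had an unadjusted p under 0.05. In that comparison all 18 general genes were positive (median 0.42) and 0 had, where 6.18% of genes were higher. Of 6 tested genes of recruited monocytes 2 had an unadjusted p under 0.05 (Ccl9 0.83 and Fn1 0.93), and Vcan was at 0.84. Of 6 tested MHC class II genes 1 had (H2-DMa 0.38), with H2-Aa at 0.49 and H2-Ab1 at 0.42, and the median was 0.40.

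The heme and iron genes included differences that passed adjustment. Hmox1 rose in the KCL-HO-1i average (log2 fold change 2.42, SE 0.38, adjusted p = 0.0113), as did Slc40a1, the iron exporter ferroportin (1.5, SE 0.26, adjusted p = 0.0149), and Spic, the transcription factor of iron-recycling macrophages (3.14, SE 0.59, adjusted p = 0.0275), in edgeR. They were 3 of the 8 genes that passed adjustment, and 8 of the 9 tested genes of the list had an unadjusted p under 0.05. The enzyme Hmox2, the constitutive heme oxygenase, was at 0.00 (SE 0.06, adjusted p = 0.997).

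Markers of other cell types were high in several of the same libraries. All 12 adipocyte genes had an unadjusted p under 0.05 in the KCL-HO-1i average, with a median log2 fold change of 2.31 (Lpl 2.28, Pparg 2.21 and Fabp4 2.44), as had all 12 skeletal muscle genes, with a median of 3.33 (Myh4 3.85, Tnni2 3.36 and Atp2a1 3.79), and all 9 fibroblast genes, with a median of 1.41 (Pdgfra 1.41, Lum 1.92 and Dcn 1.72). None of these passed adjustment. The backgrounds differed. Between KCL-HO-1i/5-FU and 5-FU, 0 of the 12 muscle genes were higher (median log2 fold change -2.25, against 6.98 in vehicle and 5.54 in gemcitabine). There 9 of the 12 adipocyte genes were higher (median 0.32, against 3.80 and 2.47), and no muscle or adipocyte gene had an unadjusted p under 0.05. All 9 fibroblast genes were higher there (median 0.80), 2 of them at that level, where 6.18% of genes were higher. The summed adipocyte level ran from 54.7 to 461 CPM in vehicle, from 65.2 to 8197 with KCL-HO-1i, from 29.05 to 590.3 with KCL-HO-1i/5-FU and from 49.1 to 9646 with KCL-HO-1i/gemcitabine, no marker being at 0 in any group. Its highest values, 9646 and 8197 CPM, were in KCL-HO-1i/gemcitabine replicate 2 and KCL-HO-1i replicate 4, which were also the top libraries for Mrc1. Gemcitabine replicate 5 held the highest adipocyte sum of its group, 1883 CPM, and KCL-HO-1i/5-FU replicate 3 the highest fibroblast sum of its group, 4657 CPM. The summed muscle level reached 15015 and 4890 CPM in the same libraries and at most 71.08 in the KCL-HO-1i/5-FU group. Whether tissue around the tumour had a part in the levels of the 10 genes was not tested.

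Blood and lymphatic vessels were read for the same reason, since PvTAMs lie on vessels and Lyve1 also marks lymphatic endothelium. Of 8 blood endothelial genes all were positive, 5 with an unadjusted p under 0.05 (Cldn5 1.60, Tek 1.23 and Erg 0.92 among them), with a median log2 fold change of 0.72. Of 6 tested lymphatic genes only Pdpn had (1.46), a gene that fibroblasts also express, while Prox1, the defining factor of lymphatic endothelium, was at -0.58 (SE 0.34, adjusted p = 0.310) and Vegfc at 0.36. The 7 lymphatic genes summed to between 8.55 and 17.2 CPM in vehicle, where Ccl21a had no read, to between 11.1 and 26.5 with KCL-HO-1i, and to at most 78.1 with KCL-HO-1i/5-FU and 66.2 with KCL-HO-1i/gemcitabine. Against vehicle, 4 of the 6 had an unadjusted p under 0.05 in each of these combinations, all higher, where 9.79% and 11.7% of genes were. With 5-FU alone 2 of the 6 had and with gemcitabine alone 3, all higher, where 1.65% and 2.05% of genes were. Against the matched chemotherapy the combinations had 0 with 5-FU and 1 with gemcitabine, where 6.18% and 6.94% of genes were higher. The median log2 fold changes there were -0.12 and -0.03. Of the 8 epithelial genes 1 had an unadjusted p under 0.05 (Cdh1, -0.24), with Esr1 at 0.31 and Krt8 at -0.16. Itga2b, the 1 platelet gene tested, was at 0.32. None of the 6 T cell genes had an unadjusted p under 0.05, with Cd4 at 0.55, Cd8a at -0.49 and Lck at -0.29.

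The relation of each gene to these tissues was tested over the 30 libraries, with 10 genes against 4 scores (the mean log2 CPM of the general macrophage, adipocyte, lymphatic endothelial and skeletal muscle genes) and Benjamini-Hochberg adjustment over the 40 relations. Of these, 33 passed an adjusted permutation p of 0.05, all positive, namely 10 with macrophage genes, 9 with adipocyte genes, 7 with lymphatic genes and 7 with muscle genes. The permutations treated the libraries as exchangeable, although they share groups and mouse codes, so these p-values do not allow for that sharing. Without the 2 libraries farthest from the median score 9, 9, 1 and 0 passed, and the 1 lymphatic relation was that of Lyve1, which had not passed before. None of the 7 lymphatic and 7 muscle relations that had passed did so then. Not every correlation fell, since that of Timd4 with the lymphatic genes was 0.392 with those libraries and 0.395 without them. With the group means subtracted, 10, 9, 8 and 2 passed, the residuals being permuted over all libraries in the same way. As background, correlations at least as high as the lowest that passed were reached by 15.8% of all other genes for the macrophage score, 4.38% for the adipocyte, 9.63% for the lymphatic and 6.43% for the muscle score.

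Mrc1 followed the adipocyte genes (Pearson r = 0.911, permutation p = 1e-05, adjusted p = 3.33e-05, Spearman rho = 0.931, permutation p = 1e-05, adjusted p = 4e-05, 0.878 without the 2 farthest libraries) more closely than the macrophage genes (r = 0.715, permutation p = 3e-05, adjusted p = 8.57e-05, rho = 0.754, permutation p = 1e-05, adjusted p = 4e-05, 0.723 without those 2), although the difference between these correlations was not tested. Here 1e-05 is the smallest p that 100000 resamples give. Lyve1 showed the widest gap, with r = 0.865 to the adipocyte genes (permutation p = 1e-05, adjusted p = 3.33e-05, rho = 0.859, permutation p = 1e-05) and r = 0.405 to the macrophage genes (permutation p = 0.026, adjusted p = 0.0336, rho = 0.411, permutation p = 0.0242), and its relation to the macrophage genes did not pass without the 2 farthest libraries (r = 0.384, adjusted p = 0.0763). Its relation to the lymphatic genes had r = 0.369 (permutation p = 0.0448, adjusted p = 0.0527, rho = 0.435, permutation p = 0.0167), and it was the 1 relation to the lymphatic genes that passed without the 2 farthest libraries (r = 0.456, adjusted p = 0.0333). Cbr2 was related to the macrophage genes (r = 0.657, permutation p = 0.00013, adjusted p = 0.000306, rho = 0.620, permutation p = 0.00041) and was the 1 gene whose relation to the adipocyte genes did not pass (r = 0.340, permutation p = 0.065, adjusted p = 0.0722), although by rank it did (rho = 0.421, permutation p = 0.0212, adjusted p = 0.0314). The macrophage and adipocyte scores were themselves correlated (r = 0.615), so these relations are not separate from each other.

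**Figure D5:**
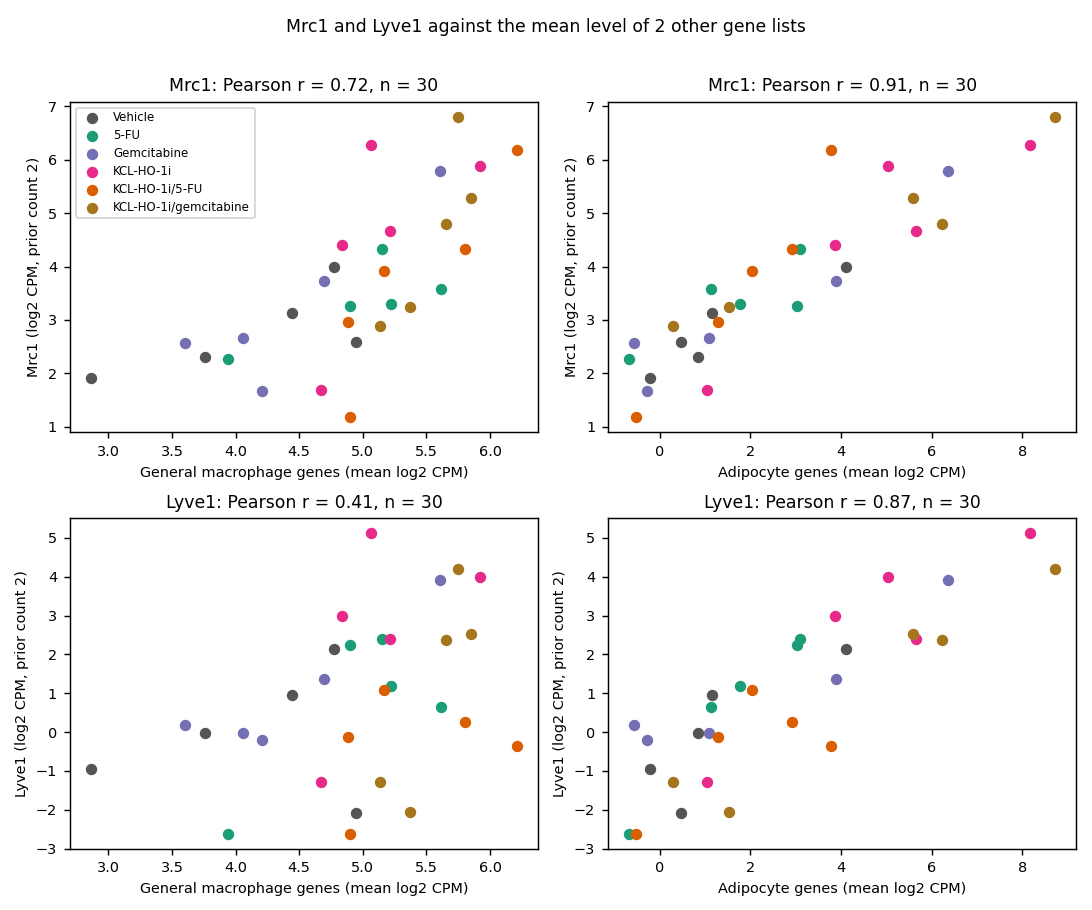
Mrc1 (top) and Lyve1 (bottom) in log2 CPM against the mean log2 CPM of 18 general macrophage genes (left) and of 12 adipocyte genes (right), 1 point per library, coloured by group. Both genes follow the adipocyte genes, with r of 0.911 and 0.865, and Lyve1 is more scattered against the macrophage genes, with r of 0.405.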

How the data were processed

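RNA of 30 mammary tumours was sequenced from stranded libraries (a directional kit per the labels). Per the submitters' processing notes and the methods of the study, the authors used FastQC 0.11.9, STAR 2.7.9a, Salmon 1.9.0, tximport and DESeq2 with build mm10, and the annotation release is not given in the sources used here. The authors deposited 1 table of expected counts (estimated counts per gene, 38.0% of values not whole), although the methods speak of TPM. Library totals differ, so the values are not TPM.

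Counts were rounded and filtered with filterByExpr by group (minimum count 10), leaving 13663 of 21841 genes, and the genes left out held 0.0565% of counts. edgeR 4.0.16 in R 4.3.3 (TMM, robust quasi-likelihood, 6 group means, 30 libraries) gave 12 contrasts, two-sided, with Benjamini-Hochberg adjustment over all genes tested and a threshold of 0.05. Between libraries of a group, the common coefficient of biological variation came to 0.401. Contrasts were each treatment against vehicle, each combination against either of its parts, KCL-HO-1i averaged over vehicle, 5-FU and gemcitabine, and 2 interactions. DESeq2 1.42.0, limma-voom 3.58.1, other filters and scalings, covariates and leaving out each library were alternatives. Fits were tested on simulated data.

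CPM used TMM effective library sizes, and log2 CPM a prior count of 2. Permutation tests were two-sided with 100000 resamples. The 3-read levels cover counting error alone, because reads without molecular identifiers are not separate molecules. The 10 genes and all lists were chosen with earlier results of these data known. All 10 genes were described. In the KCL-HO-1i average each was given with its test, in other contrasts those with an unadjusted p under 0.05, and from each list the 3 genes with the smallest p in the KCL-HO-1i average. The result of a further gene list is not reported here.

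Groups came from the labels. Same-numbered replicates correlated by 0.00284 on average in their residuals (75 pairs), and 5 of 30 libraries correlated best with their own number, so numbers were not taken as pairs. No 2 libraries of a group agreed within sampling noise (chi-square per degree of freedom at least 20.7 over 60 pairs).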

Additional observations from a re-analysis of the deposited data

Results flagged for a closer look

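Within groups of 5 libraries, 60 group and gene combinations were screened for a library set apart from the other 4 (a gap over 0.71 of the whole range on the log2 scale), and 5 were found, where chance marks about 1 in 20. Cd163 was low in vehicle replicate 3 at 0.0879 CPM and in 5-FU replicate 4 at 0 CPM. The latter library was also the low one of its group for Stab1 at 7.58 CPM and for F13a1 at 3.01 CPM. Cbr2 was high in KCL-HO-1i/5-FU replicate 3 at 229.8 CPM.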

How the results depend on the processing

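Each of the 12 contrasts was refitted with DESeq2, limma-voom, another normalization, looser and stricter count filters, the replicate block, the mouse code, a macrophage and an adipocyte score, and without each library. The count of members called was 0 in edgeR in every contrast. In the KCL-HO-1i average it was 4 with DESeq2 and between 0 and 6 without 1 library (6 without gemcitabine replicate 5, 2 without KCL-HO-1i replicate 5 or KCL-HO-1i/5-FU replicate 4 or 5, and 1 without 5-FU replicate 5, KCL-HO-1i replicate 1 or KCL-HO-1i/gemcitabine replicate 4). For KCL-HO-1i/gemcitabine against vehicle it was 1 (Maf) with DESeq2 and 1 with limma-voom, and between 0 and 1 without 1 library (KCL-HO-1i/5-FU replicate 3), and between KCL-HO-1i and its combination with 5-FU it was 1 (Lyve1) with DESeq2. In those contrasts edgeR called 0 genes, DESeq2 883 and 390 and limma-voom 1310 and 20. Over all genes the KCL-HO-1i average had 8 calls in edgeR, 1139 in DESeq2, 263 in limma-voom and 1130 without gemcitabine replicate 5. The replicate block gave 0 members called in every contrast, and 12 genes in the KCL-HO-1i average. The score relations past the threshold went from 33 to 19 without the 2 farthest libraries.

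Among the log2 fold changes with an unadjusted p under 0.05 and all those of the KCL-HO-1i average, the following signs turned, and the cause was not tested. With the macrophage score the averaged log2 fold changes were -0.23 for Cd163, -0.0606 for F13a1, -0.20 for Folr2, -0.48 for Lyve1, -0.23 for Siglec1 and -0.47 for Timd4. That covariate gave -1.06 for F13a1 in KCL-HO-1i/5-FU against vehicle, and -0.43 for F13a1, -0.29 for Folr2, -0.0863 for Mrc1 and -0.22 for Stab1 in KCL-HO-1i/gemcitabine against vehicle. With the adipocyte score the averages of Lyve1 and Timd4 were -0.96 and -0.47. With the mouse code, Maf in KCL-HO-1i against vehicle was -0.11 and the 5-FU interaction of Timd4 0.26. Both values use the vehicle group, which that fit ties to other groups through vehicle replicate 1 alone. Timd4 was left out by the filter at a mean of 50 counts. Depth limits Timd4 most, with 12 reads in the vehicle group.
Signs of the other values also turned. With the mouse code the members positive went from 9 to 1 for 5-FU and from 7 to 0 for gemcitabine against vehicle, and with the macrophage score from 9 to 1 for KCL-HO-1i/5-FU and from 10 to 3 for KCL-HO-1i/gemcitabine. The mouse code values rest on vehicle replicate 1 alone, since no other vehicle library shared a code with another group. No library given only 5-FU or only gemcitabine shared a code with vehicle, so these signs cannot be read as a direct comparison.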
